A study of Oryza sativa with 45 samples.

Results

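WRKY proteins are plant transcription factors that bind W-box elements in the promoters of their targets, and many of them are switched on by pathogens, wounding or abiotic stress. Several act together in rice: OsWRKY62, OsWRKY71 and OsWRKY76 belong to the same subgroup of the family (group IIa), in which members can restrain defence as well as promote it, and OsWRKY51 and OsWRKY71 jointly repress gibberellin-induced genes in the aleurone layer of the grain. The question asked of each gene was whether its mRNA level differed between a transformed line, a line that had lost its transgene and an untransformed control, and whether it responded to salt.

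Of 10 stress-related WRKY names, 5 were matched to a probe set with a single annotated gene, by the symbol or a synonym of the rice reference annotation, and these 5 of the 54922 probe sets of the array are described. They were OsWRKY24 (Entrez gene 4327518, chromosome 1), OsWRKY51 (4335388, chromosome 4), OsWRKY62 (4347070, chromosome 9), OsWRKY71 (4328512, chromosome 2) and OsWRKY76 (4347069, chromosome 9). Each had 1 probe set, and none shared identical values with another probe set. OsWRKY62 and OsWRKY76 were direct neighbours in the reference, with 0 genes between them. OsWRKY13, OsWRKY28, OsWRKY45, OsWRKY53 and OsWRKY72 are not analysed here. Of all probe sets, 24080 had 1 annotated gene, 95 had several and 30747 had none.

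The seedlings were of the japonica cultivar Nipponbare and fell into 15 conditions with 3 arrays each, 45 arrays in all, every array holding a pool of 10 whole seedlings aged 15 days. Line Ta was transformed with Agrobacterium under hygromycin selection and carried 1 copy of OsICE1, a transcription factor gene of the cold response, fused to a TAP tag (a label for protein purification) and driven by the maize ubiquitin promoter. Line NSb was a negative segregant: it went through in vitro culture and came from another event, with OsICE1 under the same promoter and no tag, but had lost the transgene. Line C was grown from seed and had gone through neither transformation nor in vitro culture. Ta, NSb and C were compared in generation F4. In F6 they were compared under salinity of 12 dS per m for 12 days and without salt. In F8 they were compared, with no salt applied, in progeny of salt-stressed F6 plants (salt history) and in progeny of unstressed plants. Each line came from 1 event or 1 seed source, so that line and event cannot be told apart, and no further line was analysed here.

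Values are log2 signals normalised by the authors with RMA (robust multi-array averaging). Array medians lay between 4.46 and 4.5 in F4, 4.14 and 4.22 in F6 and 4.53 and 4.58 in F8, and levels were therefore compared only within a generation. Arrays of the same condition correlated with r between 0.975 and 0.991 across probe sets. The probe set of OsICE1 read 8.82 to 9.63 in the 15 Ta arrays and 4.37 to 6.30 in the 30 arrays of NSb and C, so the transgene read as the labels say. A difference passed the test at an adjusted p below 0.05 in limma, where p-values were adjusted over the whole array by the Benjamini-Hochberg method. OsWRKY62 was the dimmest of the genes and lay below the median of its own array in 27 of 45 arrays, whereas OsWRKY24 and OsWRKY71 lay above it in all 45 and OsWRKY51 and OsWRKY76 below it in 1 array each. In whole seedlings, fewer cells of a type and less RNA per cell cannot be told apart.

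**Figure D1:**
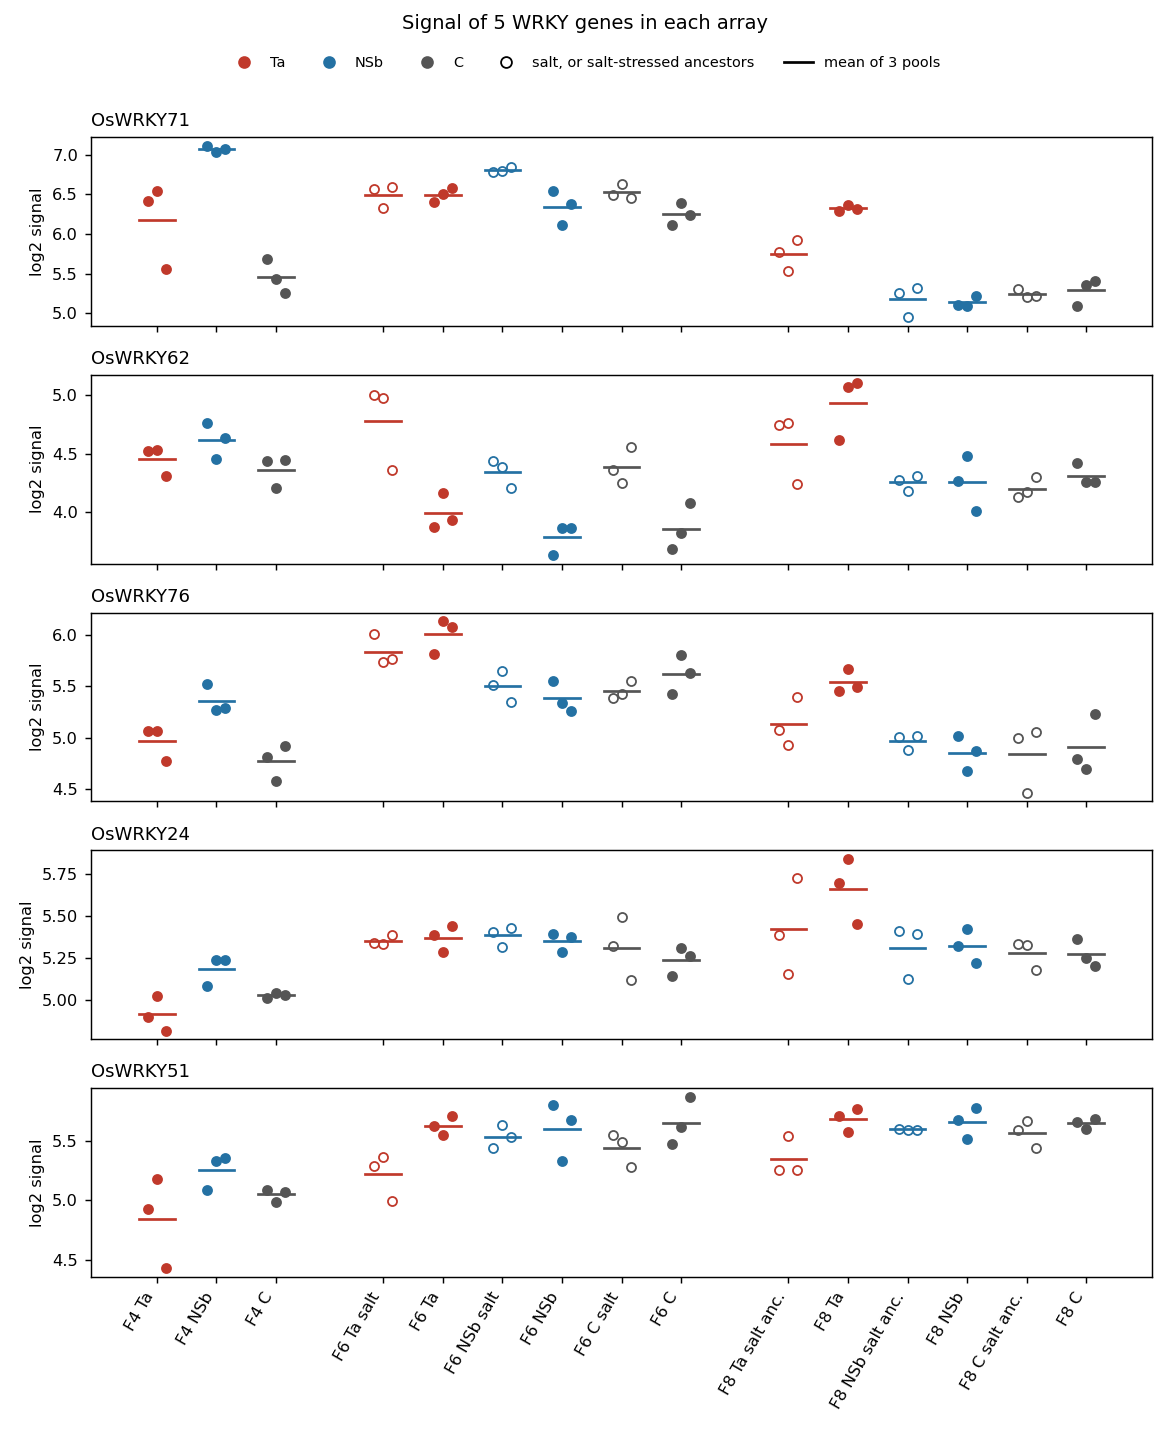
Log2 signal of 5 WRKY genes (1 panel each) in every array, by generation and line, with Ta in red, NSb in blue and C in grey. Open points are salt-treated pools in F6 or pools with salt-stressed ancestors in F8, and lines are means of 3 pools; OsWRKY71 stood highest in NSb in F4 (7.03 to 7.12) and in Ta without salt history in F8 (6.29 to 6.37).

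In F4, OsWRKY71, a repressor of gibberellin signalling that is also induced in defence, was the only one of the 5 genes that passed in any line comparison, and it was higher in NSb than in C. Its log2 signal was 7.12, 7.03 and 7.07 in the NSb pools, against 5.68, 5.43 and 5.25 in the C pools. The lowest NSb pool therefore exceeded the highest C pool by a wide margin. The difference was 1.62 ± 0.23 on the log2 scale (SE, n = 3 pools per line), or 3.07-fold (limma, adjusted p = 0.0229), in a comparison in which 1.06% of all probe sets passed. The call depended on single arrays: without any 1 of the 3 NSb arrays, or without C replicate 2 or 3, the adjusted p reached as much as 0.0936, while the difference stayed between 1.52 and 1.64.

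The Ta pools of F4 were split for the same gene. OsWRKY71 read 6.42, 6.54 and 5.57 in Ta, so that replicate 3 lay among the C pools and the other two lay above them. The difference from C was 0.72 on the log2 scale and did not pass (adjusted p = 0.282). Without Ta replicate 3 it was 1.03 ± 0.13 (SE) and passed with an adjusted p of 0.0433, whereas without Ta replicate 1 or 2 it was 0.60 or 0.54 and did not. The background share was 0.164% for Ta against C and 0.071% for Ta against NSb, where no WRKY gene passed either.

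The other genes had smaller differences in F4. OsWRKY76, which represses phytoalexin genes and blast resistance in rice, read 5.53, 5.27 and 5.29 in NSb, against 4.81, 4.57 and 4.92 in C. The groups did not overlap, and the difference of 0.59 had an adjusted p of 0.077. OsWRKY62, a negative regulator of immunity to bacterial blight, averaged 4.62 ± 0.16 in NSb and 4.36 ± 0.14 in C (SD, n = 3 each). OsWRKY24, which represses hormone signalling in aleurone cells, averaged 5.19 ± 0.09 in NSb and 5.03 ± 0.02 in C. OsWRKY51 averaged 5.26 ± 0.15 in NSb and 5.05 ± 0.06 in C. In all 5 genes every NSb array was above every C array, a pattern seen in 9.01% of all probe sets. The gap was very narrow for OsWRKY51 (lowest NSb 5.092, highest C 5.091), OsWRKY62 (4.455 and 4.445) and OsWRKY24 (5.083 and 5.045). Their differences did not pass (limma, adjusted p = 0.673, 0.379 and 0.453). The median difference of the 5 was 0.25, against -0.01 over all probe sets.

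**Figure D2:**
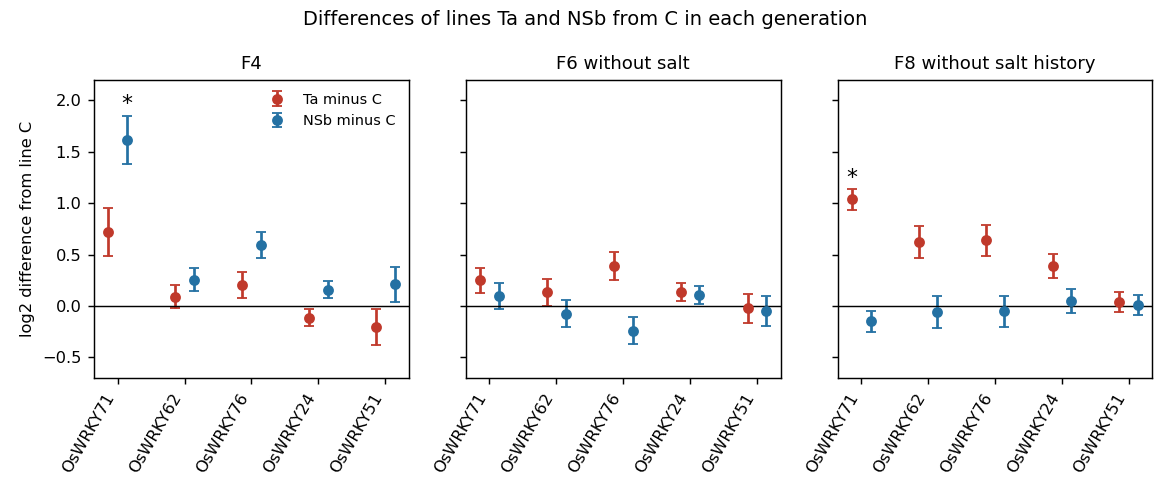
Log2 difference from line C of Ta (red) and NSb (blue) for 5 WRKY genes in F4, in F6 without salt and in F8 without salt history, with the standard error of the fit (n = 3 pools per line). Asterisks mark adjusted p below 0.05 in limma: OsWRKY71 in NSb in F4 (1.62) and in Ta in F8 (1.04).

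In F6 without salt, no WRKY gene passed between lines, and few probe sets did: 0.0455% for Ta against C, 0.031% for NSb against C and 0.0401% for Ta against NSb. OsWRKY71 lay between 6.41 and 6.58 in Ta, between 6.12 and 6.54 in NSb and between 6.11 and 6.39 in C. The Ta pools were all above the C pools by a narrow gap, and the NSb and C pools overlapped. The share of all probe sets with such a gap was not computed for F6 lines, so the gap alone is no evidence of a difference. The OsWRKY71 difference of Ta from C was 0.25 (limma, adjusted p = 0.706). OsWRKY76 differed most between lines: it read 5.82, 6.14 and 6.08 in Ta, against 5.55, 5.33 and 5.26 in NSb, a difference of 0.63 with an adjusted p of 0.245. It read 5.42, 5.81 and 5.63 in C.

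In F6 under salt, the background shares were 0.572% for Ta against C, 0.0564% for NSb against C and 0.091% for Ta against NSb, and again no WRKY gene passed. OsWRKY76 read 6.01, 5.74 and 5.77 in salt-treated Ta, all above the pools of the other lines, against 5.39, 5.43 and 5.56 in salt-treated C. That difference was 0.38 with an adjusted p of 0.21. OsWRKY71 read 6.79, 6.79 and 6.85 in salt-treated NSb, above all the salt-treated C pools, which read 6.49, 6.63 and 6.46. The OsWRKY71 difference of NSb from C was 0.28 with an adjusted p of 0.642. How many of all probe sets separate in this way was not computed for these comparisons, so the separation alone is no evidence of a difference.

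In F8 without salt history the line that stood apart was Ta. OsWRKY71 read 6.29, 6.37 and 6.31 in Ta, against 5.11, 5.09 and 5.22 in NSb and 5.10, 5.36 and 5.40 in C. The Ta pools were close to each other and lay clear of all the other pools. The difference of Ta from C was 1.04 ± 0.10 (SE), or 2.05-fold (limma, adjusted p = 0.00343), where 0.508% of probe sets passed. The difference of Ta from NSb was 1.19 ± 0.10 (SE), or 2.28-fold (adjusted p = 0.00158), where 0.319% passed. Both passed whichever of the 9 arrays was left out, but not with a fold of at least 3 required, nor when only the 10% of probe sets with the highest SD were tested (adjusted p = 0.173 against C and 0.0866 against NSb). NSb and C did not differ by the test for any WRKY gene (0.0419% of probe sets passed).

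In F8 all the genes except OsWRKY51, 4 of 5, were higher in every Ta array than in any C array, as were 8.3% of all probe sets. The same 4 genes were higher in every Ta array than in any NSb array, as were 7.44% of probe sets. OsWRKY62 read 4.62, 5.07 and 5.10 in Ta, against 4.42, 4.26 and 4.26 in C, a difference of 0.62 with an adjusted p of 0.175. OsWRKY76 read 5.46, 5.67 and 5.49 in Ta, against 4.79, 4.69 and 5.23 in C, a difference of 0.64 with an adjusted p of 0.145. Both genes had 1 pool close to the other line, the lowest Ta pool for OsWRKY62 and the highest C pool for OsWRKY76. OsWRKY24 read 5.70, 5.84 and 5.45 in Ta, against 5.36, 5.25 and 5.21 in C, a difference of 0.39 with an adjusted p of 0.253. OsWRKY51 averaged 5.69 ± 0.10 in Ta and 5.65 ± 0.04 in C (SD, n = 3 each). The median difference of the 5 genes from C was 0.62, against -0.00016 over all probe sets.

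In F8 plants with salt-stressed ancestors, OsWRKY71 again had its highest values in Ta, at 5.77, 5.54 and 5.93, against 5.26, 4.95 and 5.31 in NSb and 5.30, 5.21 and 5.21 in C. The Ta pools lay above all NSb and C pools, which overlapped with each other, and the differences were smaller than in plants without salt history, a contrast between the 2 that was not tested. The share of all probe sets with such a gap was not computed here, so the gap alone is no evidence of a difference. Ta differed from C by 0.50 (adjusted p = 0.192) and from NSb by 0.57 (adjusted p = 0.187). No WRKY gene passed between lines in these plants, where the background shares were 0.402% for Ta against C, 0.0546% for NSb against C and 0.189% for Ta against NSb.

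The effect of salt history itself was tested within each line. No WRKY gene passed in any line, and hardly any probe set did: 0.031% in Ta, 0.00364% in NSb and 0.0% in C. The OsWRKY71 values of Ta with salt history, given above, all lay below those of Ta without it, a difference of -0.58 ± 0.11 (SE) with an adjusted p of 0.104. OsWRKY76 averaged 5.13 ± 0.24 in Ta with salt history and 5.54 ± 0.11 in Ta without (SD, n = 3 each). OsWRKY51 averaged 5.35 ± 0.17 in Ta with salt history and 5.69 ± 0.10 in Ta without. For these 3 genes every Ta array with salt history was below every Ta array without, a pattern seen in 5.9% of probe sets. In NSb the differences of the 5 genes with salt history lay between -0.06 and 0.12, and in C between -0.11 and 0.01.

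Each generation was measured against its own C pools, so a shift common to all lines cancels when line differences are compared across generations. A change of scale does not cancel, and a change can lie in C as well as in the other line. The C mean of OsWRKY71 was 5.46 in F4, 6.25 in F6 without salt and 5.29 in F8 without salt history, on arrays whose medians differ. The NSb difference of OsWRKY71 from C was 1.62 in F4, 0.10 in F6 without salt and -0.15 in F8 without salt history. It was smaller by 1.52 ± 0.24 in F6 than in F4 (interaction in limma, adjusted p = 0.00472) and by 1.77 ± 0.24 in F8 than in F4 (adjusted p = 0.00112), with background shares of 0.608% and 0.288%. Both changes passed whichever of the 27 arrays was left out, and the change in F6 fell short of a fold of at least 3. The Ta difference of the same gene was 0.72, 0.25 and 1.04 in F4, F6 and F8, and neither change from F4 passed (background shares of 0.563% for F6 and 0.55% for F8). OsWRKY76 had NSb differences of 0.59, -0.24 and -0.05 in the 3 generations, and its change from F4 to F6 had an adjusted p of 0.0644. OsWRKY24 had Ta differences of -0.11, 0.13 and 0.39, with an adjusted p of 0.0861 for F8 against F4. All the comparisons of a generation share its C arrays.

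Salt raised OsWRKY62 in all 3 lines of F6. In Ta it read 5.0, 4.98 and 4.37 under salt, against 3.88, 4.17 and 3.94 without. In NSb it read 4.44, 4.39 and 4.21 under salt, against 3.64, 3.86 and 3.86 without. In C it read 4.36, 4.25 and 4.56 under salt, against 3.68, 3.83 and 4.08 without. In each line the lowest salt-treated pool was above the highest untreated pool. The difference was 0.79 ± 0.16 in Ta (1.72-fold, limma, adjusted p = 0.00402), 0.56 ± 0.16 in NSb (1.47-fold, adjusted p = 0.0249) and 0.53 ± 0.16 in C (1.44-fold, adjusted p = 0.0448), with SE and n = 3 pools per condition. The call in C was lost with 12 of the 18 arrays left out in turn, with adjusted p up to 0.176, the call in NSb with 3 of 18, with adjusted p up to 0.088, and the call in Ta with none. The call in C was also lost with arrays centred on their medians (adjusted p = 0.0527), with only the groups compared (0.107) and with the replicate block (0.064), and no salt call of the 5 genes met a fold of at least 3 or the SD filter.

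Salt also raised OsWRKY71 in NSb. It read 6.79, 6.79 and 6.85 under salt, against 6.54, 6.12 and 6.38 without, a difference of 0.46 ± 0.11 (1.38-fold, limma, adjusted p = 0.00915) that missed the threshold only without NSb replicate 2 (adjusted p = 0.0506). In C the pools also did not overlap, with 6.49, 6.63 and 6.46 under salt, against 6.11, 6.39 and 6.25 without, but the difference of 0.28 had an adjusted p of 0.143. In Ta the difference was close to 0, with means of 6.50 ± 0.15 under salt and 6.50 ± 0.08 without (SD, n = 3 each). Salt responses did not differ between lines by the test: no WRKY gene passed for Ta against C (0.00364% of probe sets did) or for NSb against C (0.00182%). For OsWRKY71 the response of Ta was lower than that of C by 0.28 ± 0.16 (adjusted p = 0.767).

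No member fell under salt with an adjusted p below 0.05. OsWRKY51 came nearest: it read 5.29, 5.37 and 5.0 in salt-treated Ta, against 5.63, 5.55 and 5.71 in untreated Ta, a difference of -0.41 with an adjusted p of 0.068. OsWRKY76 averaged 5.84 ± 0.15 under salt and 6.01 ± 0.17 without in Ta, and 5.46 ± 0.09 under salt and 5.62 ± 0.19 without in C. OsWRKY24 averaged 5.35 ± 0.03 under salt and 5.37 ± 0.08 without in Ta.

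Salt changed a large part of the transcriptome, so these counts have a high background. In Ta, 1 of the 5 genes passed, against 10.5% of probe sets (6.26% higher and 4.24% lower). In NSb, 2 of 5 passed, both higher, against 15.4% (9.34% higher and 6.09% lower). In C, 1 of 5 passed, against 9.68% (5.14% higher and 4.54% lower). The median difference of the 5 genes was -0.02 in Ta, 0.12 in NSb and 0.07 in C, against -0.01, -0.01 and 0.00 over all probe sets. By arrays alone, 1 gene in Ta and 2 each in NSb and C were higher in every salt-treated pool, against 16.1%, 17.8% and 11.2% of probe sets.

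**Figure D3:**
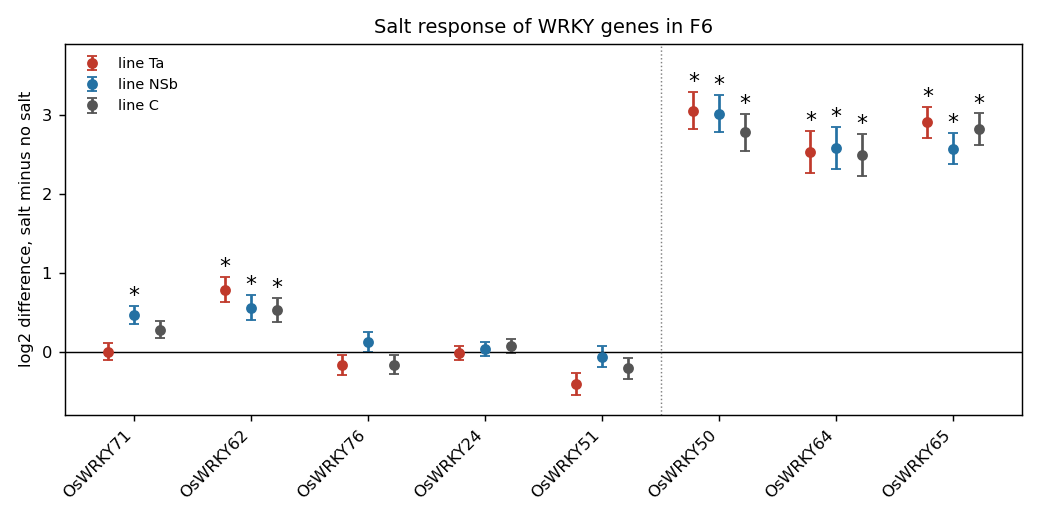
Log2 difference between salt-treated and untreated pools of F6 in Ta (red), NSb (blue) and C (grey), with the standard error of the fit (n = 3 pools per condition) and asterisks for adjusted p below 0.05 in limma. The 5 genes left of the dotted line lie between -0.41 and 0.79, and the 3 WRKY genes right of it, which the study listed for their change in these samples, lie between 2.49 and 3.06.

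Further WRKY genes showed how far the family can move in these seedlings. The reference named 1 more, WRKY9, which passed under salt in no line (differences of 0.08 in Ta, 0.25 in NSb and -0.11 in C). The study's own table of changed transcripts names OsWRKY50, OsWRKY64 and OsWRKY65, and since it was selected on these samples their rise is not independent evidence. OsWRKY50 was higher under salt by 3.06 in Ta, 3.02 in NSb and 2.78 in C, OsWRKY64 by 2.53, 2.58 and 2.49, and OsWRKY65 by 2.91, 2.57 and 2.82. None of the 3 passed for NSb against C in F4 or for Ta against C in F8.

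Genes of pathways in which these WRKY proteins act were examined from lists by role. Only part of the names listed matched a gene with a probe set. These were 17 of 21 phytoalexin, 3 of 12 pathogenesis-related, 5 of 10 downstream and 11 of 19 abscisic acid and salt names. Of the others, 5 of 17 chitin and MAP kinase, 4 of 14 salicylic acid and 9 of 15 gibberellin and amylase names matched. Of 17 genes of diterpenoid phytoalexin synthesis, the antimicrobial terpenoids of rice, 4 rose under salt in Ta, 9 in NSb and 8 in C, and none fell; their median differences were 0.22, 0.58 and 0.63. CPS4, the cyclase at the start of the momilactone branch, rose by 1.70 in NSb and 1.74 in C. CYP99A3, a momilactone cytochrome P450, rose by 0.98 in Ta, 1.06 in NSb and 1.86 in C, and KSL4, the syn-pimaradiene synthase, by 1.64, 1.84 and 1.43. Of 3 pathogenesis-related genes, the chitinase CHT3 and PBZ1, a PR10 protein, rose in all 3 lines. CHT3 was higher by 2.78 in Ta, 2.99 in NSb and 2.67 in C. Of 5 genes reported downstream of these WRKY proteins, a list that shares CPS4, KSL4 and PBZ1 with the others, 2 rose in Ta, 3 in NSb and 3 in C. Over all probe sets, 6.26% were higher under salt in Ta, 9.34% in NSb and 5.14% in C. The study had already reported chitinases and terpene synthases among the salt-responsive transcripts of these arrays, so such rises are not independent evidence.

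Of 11 abscisic acid and salt response genes, 5 were higher in Ta, 8 in NSb and 7 in C, and 1 was lower in Ta (NCED3, an enzyme of abscisic acid synthesis, by -0.75). The dehydrin RAB21 rose by 2.60 in Ta, 3.67 in NSb and 3.49 in C, and SALT, a lectin named for its salt induction, rose in all 3 lines. Of 5 genes of chitin perception and MAP kinase signalling, 2 fell in each line, among them the chitin receptor component LYP4, which fell by 0.46 in Ta, and 1 rose in NSb. None of 4 salicylic acid genes and none of 9 gibberellin and alpha-amylase genes passed under salt in any line. Over all probe sets, 10.5% passed in Ta, 15.4% in NSb and 9.68% in C, so few calls would come from lists this short.

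The same lists were examined where OsWRKY71 differed between lines. For NSb against C in F4, 0.615% of all probe sets passed as higher. The median difference was 0.44 for the 5 genes reported downstream and 0.44 for the 3 pathogenesis-related genes. It lay between -0.01 and 0.135 for the other pathway lists, against -0.01 over all probe sets. In F4, NSb was higher than C in 1 gene of each of 5 lists: CPS4 (1.18, adjusted p = 0.0254), which is in the phytoalexin list and in that of genes reported downstream of these WRKY proteins, the salicylic acid gene NPR3 (0.77, adjusted p = 0.0373), the amylase AMY3B (0.83, adjusted p = 0.0366) and NCED3 (0.81, adjusted p = 0.0236). For Ta against C in F8 without salt history, 0.508% of all probe sets passed. None of the genes of the signalling, phytoalexin, pathogenesis-related, hormone and salt lists did. Their list medians lay between -0.12 (phytoalexin) and 0.23 (genes reported downstream). A link between OsWRKY71 and any of these genes was not tested.

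Tissue markers were measured beside the salt result, with 9 of 12 root, 4 of 13 shoot and 3 of 7 senescence names matched. The mean log2 level of 9 root genes lay between 4.43 and 4.57 over the salt-treated arrays and between 5.06 and 5.38 over the untreated arrays. Of the 9, 4 were lower under salt in Ta, 5 in NSb and 5 in C, and LSI1 alone was higher, in C. The mean of 4 shoot genes lay between 8.81 and 9.13 under salt and between 8.93 and 9.22 without. Of the 4, 1 was lower under salt in Ta, 1 in NSb and none in C. Over all probe sets, 4.24% were lower in Ta, 6.09% in NSb and 4.54% in C, and 6.26%, 9.34% and 5.14% were higher. Of 3 senescence genes none rose in Ta, 2 in NSb and 1 in C. The part of these changes in the rise of OsWRKY62 was not tested. In F4 the root genes averaged 5.0 in NSb and 5.13 in C, and NAAT1 alone differed (-0.76). In F8 without salt history they lay between 5.21 and 5.28 in Ta, above the NSb arrays, which lay between 5.0 and 5.12, and within the range of the C arrays, between 5.14 and 5.29. NRT2.1 was higher and LSI2 lower in Ta, by 1.28 and -0.60 against C and by 1.36 and -0.47 against NSb. In Ta with salt history the root genes lay between 5.31 and 5.63, above Ta without. The part of these genes in the OsWRKY71 differences was not tested.

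As a description over the 15 condition means, each set against the untreated plants of its generation, OsWRKY24, OsWRKY71 and OsWRKY76 varied together, with Pearson's r of 0.80 for OsWRKY24 and OsWRKY71, 0.73 for OsWRKY71 and OsWRKY76 and 0.72 for OsWRKY24 and OsWRKY76. OsWRKY62 had an r of 0.62 with OsWRKY71, 0.61 with OsWRKY24, 0.48 with its neighbour OsWRKY76 and -0.45 with OsWRKY51. These points share arrays and control pools. Among 88 genes with a reference symbol, those most like OsWRKY71 were BIP1 (r = 0.77) and FBA1 (r = 0.74), and those most like OsWRKY62 were CPK24 (r = 0.90) and ASA2 (r = 0.89). The search was widened to 1619 genes with a symbol or a rice synonym after that result had been seen, and the closest were then OsJAZ5 (r = 0.96) and OsABA8ox1 (r = 0.91) for OsWRKY71 and OsRan1 (r = 0.95) and OsASB1 (r = 0.93) for OsWRKY62. The highest r of a search grows with the number of genes searched.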

How the data were processed

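RNA of pooled seedlings was hybridised to Affymetrix rice gene arrays (RUSGene 1.1 ST), and the deposited values are log2 signals that the authors summarised and normalised with RMA in Affymetrix Expression Console (versions not given in the sources used here). The 3 generations have different medians and were not compared by level. Nothing was renormalised or filtered. Differences were fitted with limma 3.58.1 in R 4.3.3 (lmFit, eBayes), 1 fit per generation and treatment for lines, 1 for the 18 F6 arrays and 1 for the 18 F8 arrays, and 1 for changes between generations, with Benjamini-Hochberg adjustment. Genes were named through the platform annotation and the rice reference. Replicates are pools, and no source states separate cultures, so p-values measure the spread between pools.

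The genes and lists were chosen with earlier results of these data known. All 5 genes are named with values; other genes by size of salt response or F4 difference among those that passed. The search for similar genes was widened after its first result. The fits were tested on simulated data with 200 changed probe sets, and 3 arrays per condition limit their precision. A true log2 difference of 0.5 was recovered in 0% for Ta against C in F4 and in F8, and in 17.5% for salt in C. A difference of 1 was recovered in 67%, 68.5% and 84.5%. A line difference near 0.5 that did not pass is therefore no evidence of equal levels. For salt in C, 5317 probe sets passed in the real fit, far more than the 200 changed in the simulation. The adjustment is less strict when more probe sets change, so the simulated recovery for salt may be too low. Figures used matplotlib 3.10.9.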

Additional observations from a re-analysis of the deposited data

Results flagged for a closer look

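The difference of OsWRKY71 between NSb and C was not the same in the 3 generations by a test of the difference itself. It was 1.62 in F4, and the change was -1.52 in F6 without salt (limma, adjusted p = 0.00472) and -1.77 in F8 without salt history (adjusted p = 0.00112). The F4 values come from 3 NSb and 3 C pools, and the generations, which have different array medians, were each compared with their own C pools. Whether the change lay in NSb or in C was not tested.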

How the results depend on the processing

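No direction turned in 230 refitted differences of the genes that passed. Only centring and leaving out an array (153 of the refits) change the difference itself, so the other settings could not turn it. The differences still passed in 65 of 77 refits with another setting and in 132 of 153 with 1 array left out. In the main fits, 8 of the 27 comparisons had any of the 5 genes pass, so most counts began at 0, which a fold limit cannot change. The number of the 5 genes that passed was unchanged in 217 of 243 refits with another setting and in 360 of 387 with 1 array left out. With all 45 arrays in 1 fit, it was 1 for Ta against C and for Ta against NSb in F4, 2 for NSb against C in F4 (OsWRKY76 added), 1 for Ta against NSb in F6, 3 for Ta against C and 3 for Ta against NSb in F8 (OsWRKY62 and OsWRKY76 added), 2 for salt in Ta and 2 for NSb against C in F6 against F4. With probe sets above the median level only, it was 2 for NSb against C in F4, 2 for salt in Ta (OsWRKY51 added) and 2 for NSb against C in F6 against F4. With a fold of at least 3, it was 0 for Ta against C and Ta against NSb in F8, 0 for salt in each line and 0 for NSb against C in F6 against F4. With only the 10% of probe sets with the highest SD, it was 0 for both F8 comparisons (OsWRKY71 adjusted p = 0.173 and 0.0866) and 0 for salt in each line, since the genes that had passed were filtered out. For salt in C it was 0 with arrays centred on their medians (OsWRKY62 adjusted p = 0.0527), with only the groups compared (0.107) and with the replicate block (0.064), and for salt in Ta it was 2 after centring. Whether replicate numbers pair the pools was not settled. Deviations from the group mean in same-numbered pools correlated between -0.0712 and 0.109 in F4. In the F6 salt comparison they correlated between -0.224 and 0.277, with 6 of 45 pairs over 0.1. Differently numbered pools were not set beside them. The replicate block ended no call other than that for salt in C. With 1 array left out, the counts ranged from 0 to 1 for Ta against C in F4, NSb against C in F4, salt in C and Ta against C in F6 or F8 against F4, and from 1 to 2 for salt in NSb, salt in Ta and NSb against C in F6 against F4. Each gene had 1 probe set, so the choice of probe set needed no refit. Where a result moved, the cause was not tested.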
